A study of Mus musculus with 9 samples.

Results

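The 10 genes described here are Nfe2l2, which encodes the transcription factor NRF2, and 9 genes that NRF2 is known to activate for the control of heme and redox balance: Hmox1, Gclc, Gclm, Slc7a11, Nqo1, Txnrd1, Srxn1, Prdx1 and Cat. They were taken by symbol from a deposited matrix of 54838 mouse genes. All 10 were found, and all 10 were among the 16422 genes that passed the filter on low values, which asked for 1 RPKM or more in 3 or more of the 9 libraries. RPKM is the number of reads per kilobase of exon, scaled to the size of the library, so that levels of different genes can be set side by side.

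RNA was sequenced from corona radiata cells, the innermost cumulus granulosa cells around the oocyte, of adult mice given PMSG and hCG, hormones that drive follicle growth and ovulation. The 9 libraries comprised 3 of LXR DKO mice that carry the transgene TG-AMH-LXRb (transgenic below), 3 of LXR DKO mice, which lack both liver X receptors, and 3 of wild type (WT) mice. The transgenic mice thus carry the double knockout too. The labels name the transgene but give neither its promoter nor the deleted parts of the receptor genes, and they do not say whether libraries came from separate animals, so the spread behind each p-value is that between these samples and may be technical in part. Liver X receptors are nuclear receptors for oxysterols that regulate genes of cholesterol handling.

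NRF2 is held in the cytoplasm by KEAP1, which passes it on for degradation. Oxidants and electrophiles release it, and it then pairs with small MAF proteins on antioxidant response elements, where BACH1, a repressor that heme removes, can compete with it. Its targets make glutathione, reduce thioredoxin and peroxiredoxin, and break down heme. In the ovulatory follicle, granulosa cells make steroid hormones and are exposed to reactive oxygen species.

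Depth and identity were checked first. Reads in the genes whose lengths matched, worked back from the RPKM values, numbered 29822412 to 44049966 per library. Nr1h2, which encodes LXR beta, measured 4.83 to 6.70 RPKM in transgenic, 2.85 to 3.57 RPKM in LXR DKO cells and 39.7 to 45.7 RPKM in WT libraries. Nr1h3, which encodes LXR alpha, measured 0.395 to 0.819 RPKM in transgenic, 0.713 to 1.08 RPKM in LXR DKO cells and 3.50 to 5.72 RPKM in WT libraries. The granulosa and cumulus marker score, a mean log2(RPKM + 1) over the list, was 4.31 to 4.43 in transgenic, 4.28 to 4.42 in LXR DKO cells and 4.69 to 4.84 in WT libraries. Of the 19 markers tested by limma as below, 7 were called lower in transgenic minus WT and 6 lower in LXR DKO minus WT. These are 36.8% and 31.6% of those tested, against 11.9% and 10.6% of all tested genes. None was called higher, and 0 were called in transgenic minus LXR DKO. The part of this marker difference in the differences from WT given below was not tested. Other cells contributed unevenly: the oocyte score reached 5.02 in WT 1, 3.43 in LXR DKO 1 and no more than 1.47 elsewhere, and the erythroid score reached 4.47 in WT 3 and no more than 3.29 elsewhere. WT 1 and LXR DKO 1 are called oocyte-containing below, and WT 3 globin-rich. The oviduct epithelium score was 4.78 to 5.42 in transgenic, 3.65 to 4.53 in LXR DKO cells and 2.84 to 5.36 in WT libraries, with 5.36 in WT 3. In bulk RNA, fewer cells of a type and less RNA per cell cannot be told apart.

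Sequence near the start of these genes was read from RefSeq promoter windows (GRCm38.p6, 250 bases before to 50 bases after the start). Of the 10 genes, 8 matched a window by symbol, and Hmox1 and Gclc did not. The windows were searched on both strands for the letters TGACNNNGC, the core of the antioxidant response element, with no other motif searched. At least 1 match stood in 5 of the 8 genes, against 12.4% of all 32851 windows and 16.9% of the 9587 tested genes with a window. The 5 matches are shown with the motif in capitals and 10 bases on either side, on the strand of the gene, because this element is the site through which NRF2 is known to act; on the opposite strand the motif reads GCNNNGTCA. They lie at chr2:75704885-75704913 (minus strand) for Nfe2l2, chr2:152105542-152105570 (plus) for Srxn1, chr3:122245413-122245441 (plus) for Gclm, chr4:116685456-116685484 (plus) for Prdx1 and chr10:82859104-82859132 (plus) for Txnrd1.
Nfe2l2: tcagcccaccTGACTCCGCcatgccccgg
Srxn1: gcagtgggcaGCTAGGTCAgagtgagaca
Gclm: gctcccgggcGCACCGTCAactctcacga
Prdx1: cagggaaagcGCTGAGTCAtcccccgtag
Txnrd1: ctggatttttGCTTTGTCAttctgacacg

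The motif began 240 bases upstream of the start in Nfe2l2, 134 in Gclm, 133 in Prdx1 and 92 in Txnrd1, where 1 of 3 windows held it. In Srxn1 it began 28 bases downstream of the start. The windows of Cat, Slc7a11 and Nqo1 held no match, which says only that these letters are not in these windows. None of the 5 genes with a match passed the test in any comparison below, by limma with Benjamini-Hochberg adjustment, and neither did Cat, Slc7a11 or Nqo1. The genes described here that did pass, Hmox1 and Gclc, had no window, so the presence of a match cannot be set against a difference.

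The level of the 10 genes spanned a wide range. Prdx1, a peroxiredoxin that reduces hydrogen peroxide, stood highest at a median of 231 RPKM over the 9 libraries, followed by Nfe2l2 at 51.4 RPKM. Txnrd1, Gclc, Cat and Hmox1 had medians between 24.0 and 34.0 RPKM, Srxn1 17.6 RPKM and Gclm 6.34 RPKM. The lowest were Slc7a11 at 3.71 RPKM and Nqo1 at 2.01 RPKM, and Nqo1 rested on 61 to 258 reads per library. The same genes differed in how far the libraries lay apart. The highest library was 3.42 times the lowest for Hmox1, 3.10 times for Nqo1, 2.84 times for Slc7a11 and 2.44 times for Gclc, against 1.31 times for Prdx1.

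**Figure D1:**
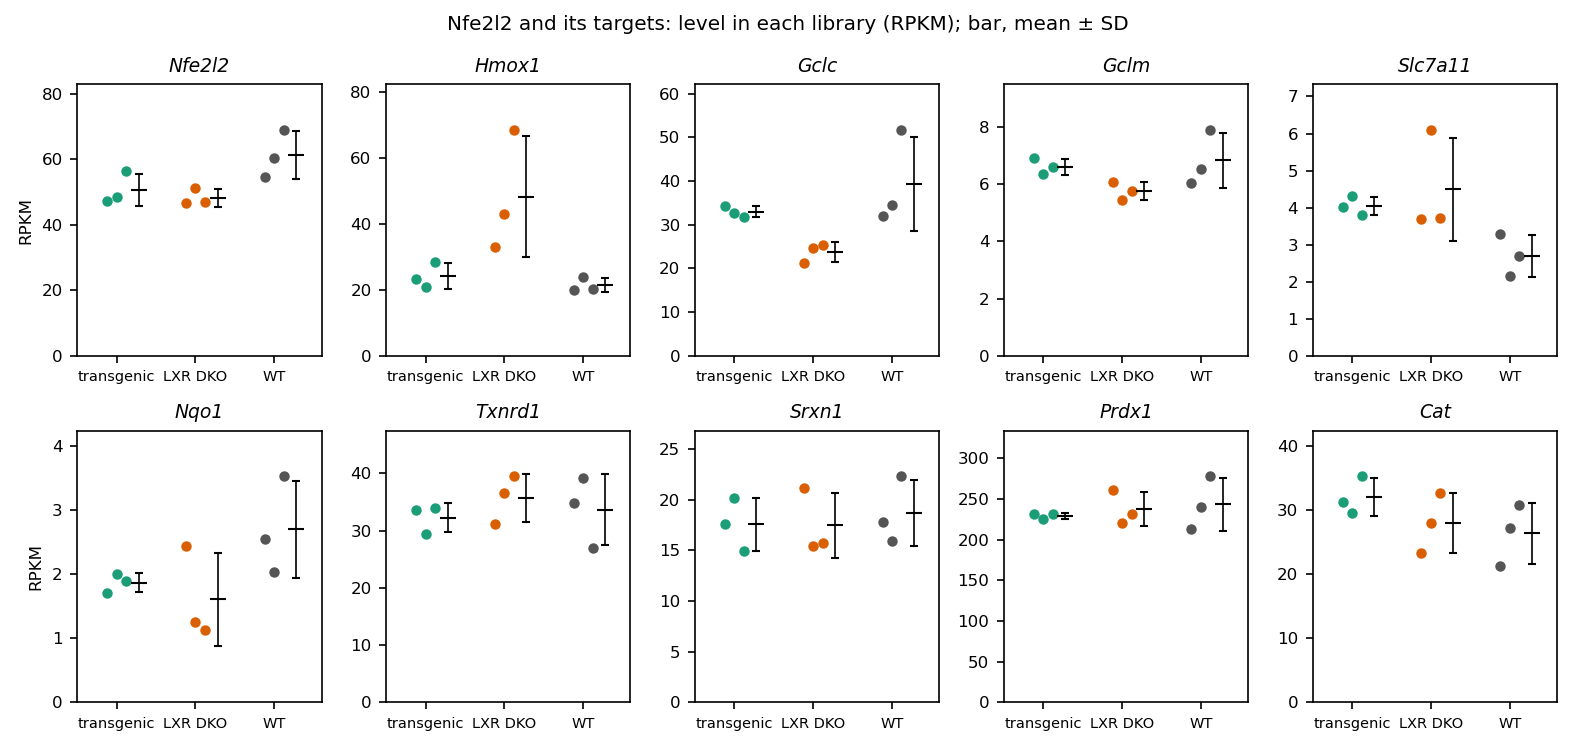
RPKM of the 10 genes in each library (points; replicates 1 to 3 from left to right) for transgenic, LXR DKO and WT, with mean ± SD (n = 3 each) beside them; every y axis starts at 0 and differs between panels. Hmox1 lies at or above 33.1 RPKM in all 3 LXR DKO libraries and at or below 28.3 RPKM in the other 6, while Gclc lies at or below 25.5 RPKM in LXR DKO cells and at or above 31.8 RPKM in the other 6.

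In LXR DKO against WT cells, Hmox1 was higher and Gclc lower, and the other 8 genes did not pass the test. Differences are log2 fold changes on the log2(RPKM + 1) scale ± standard error (SE), from limma with all 9 libraries in 1 model and Benjamini-Hochberg adjustment over 16422 genes, called at an adjusted p under 0.05. The 2 genes called of 10, 1 in each direction, stand against 10.6% of all tested genes called in this comparison, 3.47% higher and 7.12% lower. The median log2 fold change of the 10 genes was -0.06, against 0.02 over all tested genes. The 2 genotypes did not overlap for 4 of the 10 genes, Hmox1, Gclc, Slc7a11 and Nfe2l2, against 28.9% of all tested genes. At an unadjusted limma p under 0.05 there were 5, these 4 and Nqo1. The p of Nqo1, 0.0344, ranked 3741 among the 16422 tested genes.

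Hmox1 encodes heme oxygenase 1, the inducible enzyme that opens the heme ring into biliverdin, iron and carbon monoxide (ENSMUSG00000005413, mm10 chromosome 8, 75093621 to 75100589, plus strand). Its level was 33.1, 43.1 and 68.5 RPKM in LXR DKO libraries 1 to 3, against 20.04, 24.0 and 20.3 RPKM in WT 1 to 3. Every LXR DKO library was above every WT library, and LXR DKO 3 was the highest of all 9. The mean was 48.2 ± 18.3 RPKM in LXR DKO cells and 21.4 ± 2.18 RPKM in WT (SD, n = 3 each), a log2 fold change of 1.07 ± 0.23 (95% interval 0.54 to 1.60, limma, adjusted p = 0.0236). The gene was called in 15 of 20 alternative settings. Without WT 1 the adjusted p was 0.0681 at a log2 fold change of 1.03, and without LXR DKO 2 it was 0.0609 at 1.12. Without LXR DKO 3, the highest library, the log2 fold change was 0.79 with an adjusted p of 0.0435. Without both oocyte-containing libraries it was 1.26 (adjusted p = 0.0323), and without these and the globin-rich WT 3 it was 1.15 (adjusted p = 0.053).

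In transgenic libraries Hmox1 was near the WT level. It measured 23.4, 20.8 and 28.3 RPKM in transgenic 1 to 3, a mean of 24.2 ± 3.84 RPKM (SD, n = 3). All 3 lay below the lowest LXR DKO library, at a log2 fold change of -0.92 ± 0.23 (transgenic minus LXR DKO, 95% interval -1.45 to -0.38). This difference had an unadjusted limma p of 0.00374 but an adjusted p of 0.299, so it did not pass the threshold, in any of the 20 alternative settings either, where adjusted p ranged from 0.0607 to 0.721. Against WT the difference was 0.16 ± 0.23 (95% interval -0.37 to 0.69, limma, adjusted p = 0.678), with overlapping groups.

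Because heme oxygenase 1 is also abundant in macrophages that clear red cells, macrophage and erythroid markers are given beside it. The macrophage score over 19 markers was 2.79 to 3.16 in transgenic, 3.37 to 3.84 in LXR DKO cells and 3.31 to 4.09 in WT libraries. Of the 15 macrophage markers tested, 0 were called in LXR DKO minus WT by limma or by voom, with 1 at an unadjusted p under 0.05. In transgenic minus LXR DKO, limma called 1 lower, Cd68, and 9 had an unadjusted p under 0.05. In transgenic minus WT, limma called 4 lower, Cd68, C1qa, C1qb and C1qc, and voom called 2. The shares called by limma were 0%, 6.67% and 26.7%, against 10.6%, 0.116% and 11.9% of all tested genes. Adgre1, the macrophage surface protein F4/80, measured 6.36, 4.04 and 6.35 RPKM in transgenic, 10.8, 13.7 and 21.7 RPKM in LXR DKO cells, and 9.02, 10.2 and 19.1 RPKM in WT libraries. The macrophage receptor gene Csf1r measured 6.64, 7.74 and 12.6 RPKM in transgenic, 12.5, 25.5 and 30.8 RPKM in LXR DKO cells, and 14.3, 14.6 and 16.4 RPKM in WT libraries. Adgre1 was lower in every transgenic than in every other library, while Csf1r in transgenic 3 was within the LXR DKO range. Adgre1 and Csf1r were highest in LXR DKO 3, like Hmox1, but Cd68 (53.2 RPKM in LXR DKO 3, 53.8 RPKM in WT 3), Marco (4.64 RPKM in LXR DKO 3, 53.3 RPKM in WT 3) and Vsig4 (0.430 RPKM in LXR DKO 3, 5.52 RPKM in WT 3) were higher in WT 3, and the score of the whole list was 3.64 in LXR DKO 3, 3.84 in LXR DKO 2 and 4.09 in WT 3. Cd163, the hemoglobin scavenger receptor, was at or below 0.438 RPKM in every library. Spic, also on the list and as low, measured 0.0450, 0.0167 and 0.0230 RPKM in transgenic and 0.0650, 0.0422 and 0.0332 RPKM in WT libraries. In LXR DKO cells it measured 0.223, 0.109 and 0.490 RPKM, above every other library and highest in LXR DKO 3, like Hmox1. Both genes were below the filter on low values and were not tested. The erythroid score was 2.06 to 2.45 in transgenic, 1.99 to 3.29 in LXR DKO cells and 1.69 to 4.47 in WT libraries. The part of these cells in the Hmox1 difference was not tested.

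Gclc encodes the catalytic subunit of glutamate-cysteine ligase, the rate-limiting enzyme of glutathione synthesis (ENSMUSG00000032350, chromosome 9, 77754535 to 77794485, plus strand). Its level was 21.2, 24.8 and 25.5 RPKM in LXR DKO libraries 1 to 3, against 31.9, 34.6 and 51.7 RPKM in WT 1 to 3. Every LXR DKO library was below every WT library, and WT 3 stood apart from the other WT libraries. The mean was 23.8 ± 2.27 RPKM in LXR DKO cells and 39.4 ± 10.8 RPKM in WT (SD, n = 3 each), a log2 fold change of -0.67 ± 0.16 (95% interval -1.05 to -0.30, limma, adjusted p = 0.035). The gene was called in 9 of 20 alternative settings. Of the fits that left out 1 library, it was called only without WT 1 (-0.81, adjusted p = 0.0326) or WT 3 (-0.47, adjusted p = 0.0209), and without any of the others the adjusted p was 0.0556 to 0.0876. Without both oocyte-containing libraries it was -0.73 (adjusted p = 0.057), and without these and WT 3 it was -0.45 (adjusted p = 0.0453).

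In transgenic 1 to 3, Gclc measured 34.4, 32.7 and 31.8 RPKM, a mean of 33.0 ± 1.30 RPKM (SD, n = 3). Each was above every LXR DKO library, at a log2 fold change of 0.46 ± 0.16 (95% interval 0.08 to 0.83), with an unadjusted limma p of 0.0219 and an adjusted p of 0.513. Against WT the groups overlapped, with a difference of -0.22 ± 0.16 (95% interval -0.59 to 0.15, limma, adjusted p = 0.398).

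**Figure D2:**
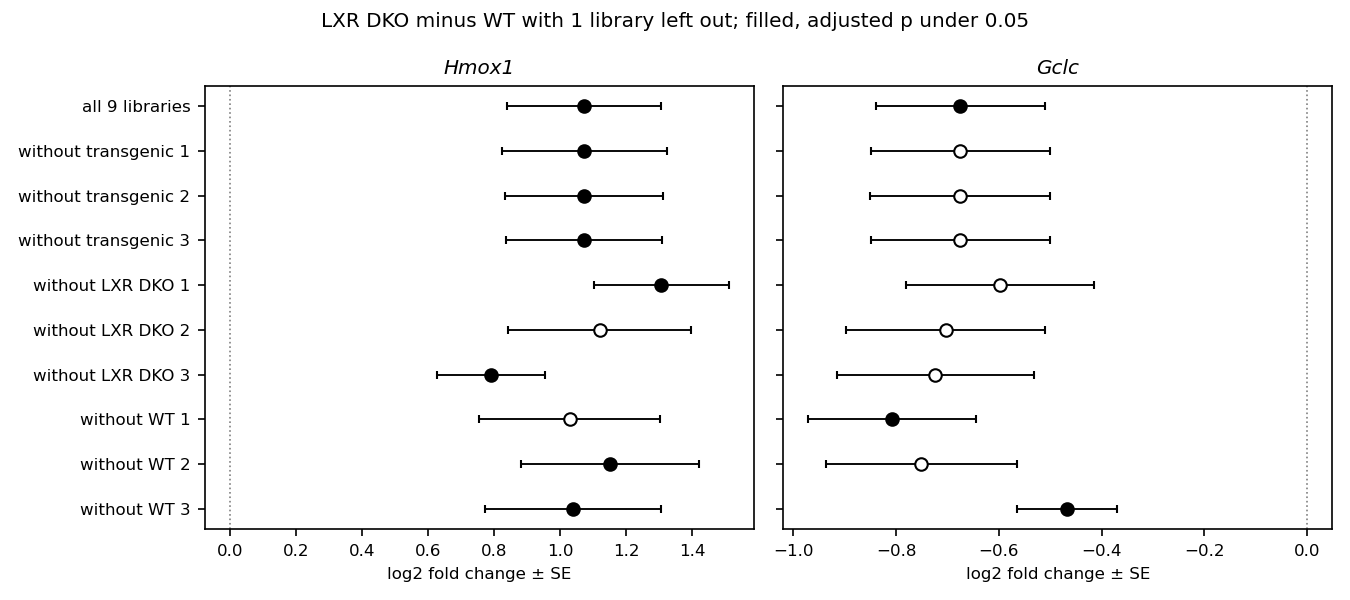
Log2 fold change (± SE) of Hmox1 and Gclc in LXR DKO minus WT with all 9 libraries and with each library left out in turn; filled circles have a limma adjusted p under 0.05. Hmox1 stays between 0.79 and 1.31 and is not called without WT 1 or LXR DKO 2, while Gclc stays between -0.81 and -0.47 and is called only with all libraries or without WT 1 or WT 3.

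Gclm encodes the modifier subunit that raises the activity of GCLC (ENSMUSG00000028124, chromosome 3, 122245557 to 122270732). It measured 6.91, 6.34 and 6.58 RPKM in transgenic 1 to 3, 6.07, 5.44 and 5.77 RPKM in LXR DKO libraries 1 to 3, and 6.05, 6.53 and 7.90 RPKM in WT 1 to 3. Like Gclc it was higher in all transgenic than in all LXR DKO libraries, at a log2 fold change of 0.17 ± 0.10 in transgenic minus LXR DKO (limma, adjusted p = 0.737). LXR DKO minus WT was -0.21 ± 0.10 (95% interval -0.44 to 0.03, adjusted p = 0.245), with overlapping groups. The ratio of Gclc to Gclm within a library, chosen after its values were seen, was 4.98, 5.16 and 4.84 in transgenic, 3.50, 4.55 and 4.41 in LXR DKO, and 5.27, 5.30 and 6.55 in WT libraries. The 3 genotypes did not overlap in this ratio, with the lowest values in LXR DKO. Each of the 3 pairs of genotypes gave p = 0.1 in a two-sided exact permutation test, the smallest p that 3 libraries against 3 allow, and 0.12 after Benjamini-Hochberg adjustment over 6 tests of ratios. The log2 difference in the ratio was 0.27 for transgenic minus LXR DKO, -0.19 for transgenic minus WT and -0.46 for LXR DKO minus WT. Without WT 3 the transgenic minus WT difference was -0.08, and without LXR DKO 1 the transgenic minus LXR DKO difference was 0.15.

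Heme oxygenase has a constitutive form, Hmox2, which measured 23.1, 23.3 and 22.9 RPKM in transgenic, 21.1, 21.7 and 23.2 RPKM in LXR DKO cells, and 18.3, 18.7 and 25.1 RPKM in WT libraries. Hmox2 passed the test in no comparison (limma, adjusted p of 0.916, 0.355 and 0.652 for transgenic minus LXR DKO, transgenic minus WT and LXR DKO minus WT). The ratio of Hmox1 to Hmox2 was 1.01, 0.891 and 1.23 in transgenic, 1.57, 1.99 and 2.96 in LXR DKO, and 1.09, 1.28 and 0.811 in WT libraries. Transcripts of the inducible form were thus in excess of the constitutive form in every LXR DKO library, and near parity in the others. The two-sided exact permutation p was 0.1 for transgenic against LXR DKO (adjusted 0.12), 1 for transgenic against WT (adjusted 1) and 0.1 for LXR DKO against WT (adjusted 0.12).

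**Figure D3:**
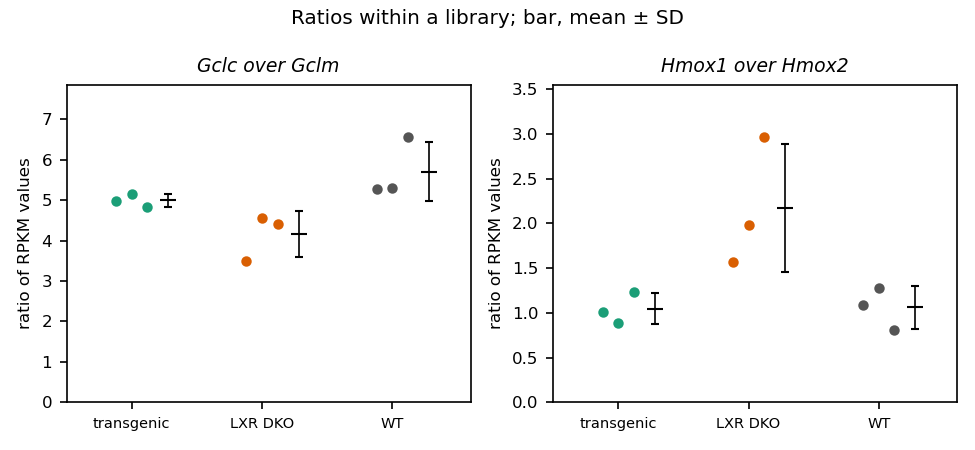
Ratio of RPKM values within each library (points) for Gclc over Gclm and Hmox1 over Hmox2 in transgenic, LXR DKO and WT, with mean ± SD (n = 3 each); y axes start at 0. Gclc over Gclm averaged 4.99 ± 0.160 in transgenic, 4.16 ± 0.571 in LXR DKO and 5.71 ± 0.730 in WT, and Hmox1 over Hmox2 averaged 1.05 ± 0.174 in transgenic, 2.17 ± 0.715 in LXR DKO and 1.06 ± 0.237 in WT.

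Slc7a11 encodes the cystine transporter xCT, which supplies cysteine for glutathione (ENSMUSG00000027737, chromosome 3, 49892526 to 50443614). It measured 4.01, 4.31 and 3.81 RPKM in transgenic 1 to 3, 3.68, 6.10 and 3.71 RPKM in LXR DKO libraries 1 to 3, and 3.28, 2.15 and 2.69 RPKM in WT 1 to 3. Every library of both LXR-deficient genotypes was above every WT library. The log2 fold change was 0.45 ± 0.18 in transgenic minus WT (95% interval 0.05 to 0.86, limma, adjusted p = 0.13) and 0.55 ± 0.18 in LXR DKO minus WT (95% interval 0.14 to 0.96, adjusted p = 0.0879), and neither passed the threshold in any alternative setting. These comparisons share the WT libraries. Its partner Slc3a2, the heavy chain that carries xCT to the membrane, measured 177, 200 and 170 RPKM in transgenic, 285, 220 and 214 RPKM in LXR DKO cells, and 266, 206 and 229 RPKM in WT libraries, and passed the test in no comparison (limma, adjusted p of 0.512 for transgenic minus LXR DKO, 0.127 for transgenic minus WT and 0.914 for LXR DKO minus WT).

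Nfe2l2 itself (ENSMUSG00000015839, chromosome 2, 75675513 to 75704641, on the minus strand) had a level of 47.5, 48.6 and 56.4 RPKM in transgenic 1 to 3, 46.6, 51.4 and 46.9 RPKM in LXR DKO libraries 1 to 3, and 54.5, 60.5 and 69.1 RPKM in WT 1 to 3. All LXR DKO libraries lay below all WT libraries, while transgenic 3 overlapped WT 1. The log2 fold change was -0.33 ± 0.11 in LXR DKO minus WT (95% interval -0.58 to -0.09, limma, adjusted p = 0.0821) and -0.27 ± 0.11 in transgenic minus WT (95% interval -0.51 to -0.02, adjusted p = 0.133). Neither passed the threshold, in any alternative setting either. The mRNA level does not report how much NRF2 protein was present, since the protein is controlled mainly by degradation.

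Nqo1 encodes a quinone reductase (ENSMUSG00000003849, chromosome 8, 107388225 to 107403206). It measured 1.71, 2.01 and 1.90 RPKM in transgenic 1 to 3, 2.44, 1.25 and 1.14 RPKM in LXR DKO libraries 1 to 3, and 2.54, 2.04 and 3.53 RPKM in WT 1 to 3. LXR DKO 1, an oocyte-containing library, stood apart from the other LXR DKO libraries and within the WT range. The log2 fold change in LXR DKO minus WT was -0.52 ± 0.21 (limma, adjusted p = 0.151), and without LXR DKO 1 it was -0.74 (adjusted p = 0.0353). All transgenic libraries lay below all WT libraries, at -0.35 ± 0.21 (95% interval -0.82 to 0.12, adjusted p = 0.29).

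The remaining 4 genes act on peroxide and thioredoxin. Txnrd1, the cytosolic thioredoxin reductase, measured 33.5, 29.4 and 34.0 RPKM in transgenic, 31.2, 36.5 and 39.5 RPKM in LXR DKO cells, and 34.8, 39.2 and 26.9 RPKM in WT libraries. Srxn1, sulfiredoxin, which repairs over-oxidized peroxiredoxin, measured 17.6, 20.2 and 15.0 RPKM in transgenic, 21.2, 15.4 and 15.8 RPKM in LXR DKO cells, and 17.8, 16.0 and 22.3 RPKM in WT libraries. For both genes the 3 genotypes overlapped. Prdx1 measured 231, 225 and 231 RPKM in transgenic, 261, 221 and 232 RPKM in LXR DKO cells, and 213, 239 and 278 RPKM in WT libraries. Cat, the peroxisomal catalase, measured 31.4, 29.6 and 35.3 RPKM in transgenic, 23.3, 28.0 and 32.7 RPKM in LXR DKO cells, and 21.3, 27.2 and 30.8 RPKM in WT libraries. The genotypes overlapped for these 2 genes too. The largest of the 12 differences was 0.28 ± 0.16 for Cat in transgenic minus WT (95% interval -0.07 to 0.64, limma, adjusted p = 0.26). For Prdx1, whose sign against WT turned with quantile normalization, the 95% intervals reached from -0.30 to 0.20 in transgenic minus LXR DKO, -0.33 to 0.17 in transgenic minus WT and -0.28 to 0.22 in LXR DKO minus WT, and for Txnrd1 and Srxn1 the widest reached -0.47 and 0.42. Differences smaller than these bounds could not be resolved with 3 libraries a genotype.

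**Figure D4:**
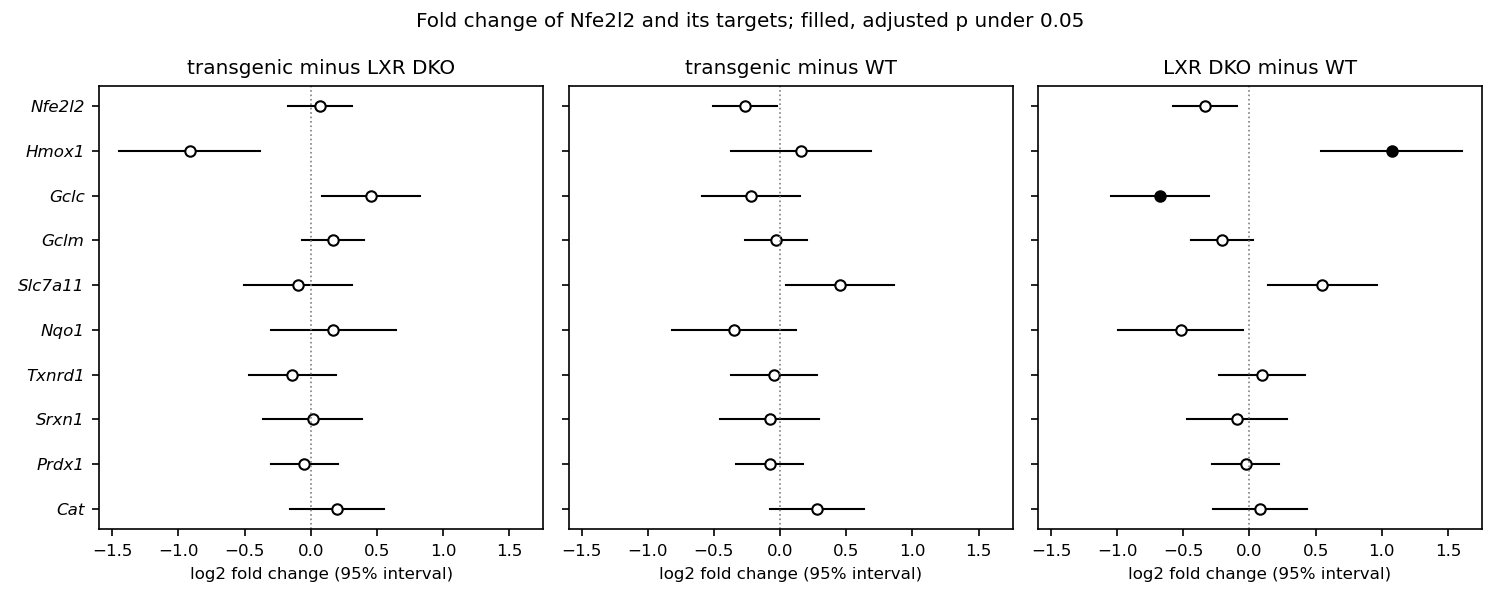
Log2 fold change with 95% interval of the 10 genes in transgenic minus LXR DKO, transgenic minus WT and LXR DKO minus WT (log2(RPKM + 1) scale, limma); filled circles have an adjusted p under 0.05. Only Hmox1 (1.07) and Gclc (-0.67) in LXR DKO minus WT are filled, and in transgenic minus LXR DKO these 2 genes lie on the opposite side of 0 (-0.92 and 0.46).

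In transgenic minus WT, limma called 0 of the 10 genes, against 11.9% of all tested genes (5.15% higher and 6.72% lower), and voom on recovered reads also called 0. At an unadjusted p under 0.05 there were 2, Slc7a11 and Nfe2l2. Such values were frequent over all genes, since a limma p of 0.0515, that of Sqstm1, ranked 5052 of 16422 in this comparison. The groups did not overlap for 2 genes, Slc7a11 and Nqo1, against 35.7% of all tested genes, and the median log2 fold change was -0.06, against 0.01 over all tested genes. In transgenic minus LXR DKO, limma and voom again called 0 of the 10 genes, where 0.116% of all tested genes (19) were called. At an unadjusted p under 0.05 there were 2, Hmox1 and Gclc, and the groups did not overlap for 3 genes, these and Gclm, against 18.3% of all tested genes. Here a limma p of 0.0504, that of Abcc1, ranked 1338 of 16422. These ranks also give the scale for the counts at an unadjusted p in the marker and gene lists. The median log2 fold change was 0.04, against 0.01 over all tested genes. The comparison of the transgenic with the LXR DKO libraries shares the LXR DKO libraries with LXR DKO minus WT, so the opposite signs of Hmox1 and Gclc in these comparisons are not independent.

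Of 14 listed regulators of NRF2, 12 were tested, and limma called 0 in each of the 3 comparisons. Of all tested genes, 0.116%, 11.9% and 10.6% were called in transgenic minus LXR DKO, transgenic minus WT and LXR DKO minus WT. At these shares few calls would fall among 12 genes. In that order, the groups did not overlap for 1, 2 and 4 regulators, against 18.3%, 35.7% and 28.9% of all tested genes. At an unadjusted p under 0.05 there were 0 in transgenic minus LXR DKO, 2 in transgenic minus WT and 3 in LXR DKO minus WT, and voom called 0, 1 and 1, in both cases Btrc, which encodes a subunit of a ubiquitin ligase for NRF2 and was named after its values were seen. Keap1 measured 16.9, 18.9 and 19.5 RPKM in transgenic, 16.8, 15.3 and 17.3 RPKM in LXR DKO cells, and 16.7, 16.1 and 18.1 RPKM in WT libraries. Bach1 measured 5.04, 5.79 and 4.98 RPKM in transgenic, 3.97, 8.72 and 6.45 RPKM in LXR DKO cells, and 6.09, 5.73 and 3.98 RPKM in WT libraries. Genotypes overlapped for both, and for the small MAF gene Mafg, whose differences lay between -0.10 and -0.02 on the log2 scale. Sqstm1, which encodes p62, an autophagy receptor that binds KEAP1, measured 439, 459 and 369 RPKM in transgenic, 464, 457 and 439 RPKM in LXR DKO cells, and 362, 344 and 373 RPKM in WT libraries. LXR DKO lay above WT in every library, at 0.33 ± 0.10 (limma, adjusted p = 0.0694), short of the threshold.

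Of 28 other listed genes that NRF2 is known to activate, 24 were tested. In transgenic minus WT, 3 were higher and 0 lower, in LXR DKO minus WT 3 were higher and 1 lower, and in transgenic minus LXR DKO limma and voom called 0, with 1 at an unadjusted p under 0.05. This is 12.5% of the list in transgenic minus WT and 16.7% in LXR DKO minus WT, against 11.9% and 10.6% of all tested genes. Their median log2 fold change was 0.19 in transgenic minus LXR DKO, 0.39 in transgenic minus WT and 0.12 in LXR DKO minus WT, against 0.01, 0.01 and 0.02 over all tested genes. The higher genes were Abcc1, Osgin1 and Cyp2a5, given side by side for both comparisons with WT, which share the WT libraries. Abcc1, an exporter of glutathione conjugates, measured 7.43, 7.19 and 7.44 RPKM in transgenic, 5.43, 6.31 and 6.37 RPKM in LXR DKO cells, and 4.81, 4.19 and 3.51 RPKM in WT libraries. It was higher by 0.70 ± 0.11 in transgenic minus WT (limma, adjusted p = 0.00746), in every alternative setting. In LXR DKO minus WT it was higher by 0.45 ± 0.11 (adjusted p = 0.0359); of the fits without 1 library this was called only without WT 1 or LXR DKO 1, with an adjusted p of up to 0.127 in the others. Osgin1, an oxidative stress response gene, measured 5.93, 4.08 and 6.39 RPKM in transgenic, 6.11, 5.38 and 6.88 RPKM in LXR DKO cells, and 3.03, 2.00 and 3.33 RPKM in WT libraries. It was higher than in WT by 0.77 ± 0.18 in transgenic (adjusted p = 0.0324) and by 0.92 ± 0.18 in LXR DKO (adjusted p = 0.0168). The first was not called without WT 1 (0.0652), WT 2 (0.0899), transgenic 1 (0.103) or transgenic 3 (0.113), and the second not without LXR DKO 3 (adjusted p = 0.0736). Without both oocyte-containing libraries neither was called (adjusted p of 0.0783 in transgenic and 0.0665 in LXR DKO cells).

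Cyp2a5, a cytochrome P450 that oxidizes bilirubin in mouse liver, measured 6.99, 2.44 and 4.25 RPKM in transgenic, 5.36, 5.02 and 5.61 RPKM in LXR DKO cells, and 0.186, 0.248 and 1.67 RPKM in WT libraries. It was higher than in WT by 1.73 ± 0.36 in transgenic (limma, adjusted p = 0.0204) and by 2.00 ± 0.36 in LXR DKO (adjusted p = 0.0115), and these values understate a change from so low a level. The first was not called without WT 1 (0.0635), WT 2 (0.0686), transgenic 1 (0.0636) or transgenic 3 (0.0696), and the second not without LXR DKO 3 (adjusted p = 0.0522); neither was called without both oocyte-containing libraries (adjusted p of 0.0779 and 0.0675). Reads of Cyp2a5 can be shared with its close copy Cyp2a4, which measured 0.907 to 1.59 RPKM in transgenic, 1.08 to 1.67 RPKM in LXR DKO cells and 0.0311 to 0.330 RPKM in WT libraries, so both are uncertain. Abcc3, another conjugate exporter, measured 1.82, 2.08 and 1.61 RPKM in LXR DKO cells and 2.98, 2.76 and 4.54 RPKM in WT libraries. It was lower by 0.63 ± 0.16 (log2 fold change -0.63, adjusted p = 0.0393), called of the fits without 1 library only without WT 2 or WT 3, with an adjusted p of up to 0.137 in the others. The counts of this list depended on single libraries. Without WT 1, WT 2, transgenic 1 or transgenic 3, 1 gene was higher in transgenic minus WT, and without LXR DKO 3, 0 were higher in LXR DKO minus WT. Without WT 3, the library rich in globin and in oviduct epithelium markers, 12 genes were higher in transgenic minus WT and 8 in LXR DKO minus WT, and these included the glutathione transferases Gstm1, Gstm2, Gstm3 and Gsta4, named after their values were seen and close enough to other family members to share reads. The part of oviduct epithelium in these counts was not tested. Calls over all tested genes, in either direction, moved too. Without WT 3 they rose from 1949 to 3442 in transgenic minus WT and from 1739 to 2082 in LXR DKO minus WT. Without WT 1, WT 2, transgenic 1 or transgenic 3 they were 908, 753, 734 and 641 in transgenic minus WT. Without LXR DKO 3 they were 606 in LXR DKO minus WT.

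Of 29 listed genes of heme synthesis and iron handling, 27 were tested. In transgenic minus WT 1 was higher and 3 lower, in LXR DKO minus WT 2 were higher and 3 lower, and in transgenic minus LXR DKO limma and voom called 0, with 4 at an unadjusted p under 0.05. This is 14.8% of the list in transgenic minus WT and 18.5% in LXR DKO minus WT, against 11.9% and 10.6% of all tested genes. Their median log2 fold change was -0.01, 0.06 and 0.02 in transgenic minus LXR DKO, transgenic minus WT and LXR DKO minus WT. The lower genes were Ppox, Slc40a1 and Ftl1 in each comparison with WT, and these comparisons share the WT libraries.

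Ppox, protoporphyrinogen oxidase, the next to last enzyme of heme synthesis, measured 8.48, 7.92 and 7.55 RPKM in transgenic, 8.60, 8.13 and 7.37 RPKM in LXR DKO cells, and 14.5, 13.3 and 14.1 RPKM in WT libraries. It fell below WT by 0.74 ± 0.09 in transgenic (log2 fold change -0.74, limma, adjusted p = 0.00179) and by 0.73 ± 0.09 in LXR DKO (log2 fold change -0.73, adjusted p = 0.00193), in all 20 alternative settings. Slc40a1, ferroportin, the iron exporter, measured 141, 170 and 129 RPKM in transgenic, 124, 110.0 and 115 RPKM in LXR DKO cells, and 212, 233 and 217 RPKM in WT libraries. It was lower than in WT in LXR DKO (-0.92 ± 0.11, adjusted p = 0.00201), again in all 20 alternative settings, and in transgenic (-0.59 ± 0.11, adjusted p = 0.0134). The call in transgenic was lost without WT 2 (adjusted p = 0.0504), transgenic 1 (0.053) or transgenic 3 (0.0502). Every transgenic library was above every LXR DKO library, at 0.33 ± 0.11 (adjusted p = 0.462).

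Ftl1, the ferritin light chain, which stores iron and is itself an NRF2 target, measured 268, 263 and 264 RPKM in transgenic, 332, 244 and 245 RPKM in LXR DKO cells, and 432, 385 and 429 RPKM in WT libraries. It was lower than in WT, with log2 fold changes of -0.64 ± 0.13 in transgenic (limma, adjusted p = 0.0166) and -0.61 ± 0.13 in LXR DKO cells (adjusted p = 0.019). The transgenic call was lost without WT 1 (adjusted p = 0.055) or transgenic 1, 2 or 3 (0.0559, 0.0578 and 0.0611), and the LXR DKO call without WT 1 (0.0615), LXR DKO 2 (0.0686) or LXR DKO 3 (0.0804). Ftl1 has processed copies in the mouse genome, so that its reads may be shared among them. The ferritin heavy chain gene Fth1 overlapped between genotypes and passed no test (limma, adjusted p of 0.936 for transgenic minus LXR DKO, 0.859 for transgenic minus WT and 0.658 for LXR DKO minus WT). Hmox1 and Ftl1 thus differed from WT in opposite directions in LXR DKO cells.

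Alas1, the first and rate-limiting enzyme of heme synthesis, measured 21.8, 23.1 and 26.3 RPKM in transgenic, 17.7, 18.7 and 16.3 RPKM in LXR DKO cells, and 12.2, 14.4 and 17.4 RPKM in WT libraries. It was higher in transgenic minus WT by 0.67 ± 0.13 (limma, adjusted p = 0.0156), a call lost without WT 2 (0.0529) or transgenic 3 (adjusted p = 0.062). Flvcr1, which exports heme, measured 4.21, 5.03 and 5.14 RPKM in LXR DKO cells and 2.56, 3.55 and 2.18 RPKM in WT libraries, and was higher by 0.64 ± 0.16 (adjusted p = 0.039). Slc11a2, an iron importer, measured 7.03, 7.66 and 6.24 RPKM in LXR DKO cells and 5.66, 4.69 and 4.77 RPKM in WT libraries, and was higher by 0.40 ± 0.10 (adjusted p = 0.0405). Neither call was stable: of the fits without 1 library, Flvcr1 was called only without WT 2, LXR DKO 1 or transgenic 3 and Slc11a2 only without WT 1, with adjusted p of up to 0.135 and 0.132 in the others. Blvra and Blvrb, the reductases that act on biliverdin after heme oxygenase, overlapped between genotypes, with differences between -0.13 and -0.01 on the log2 scale. Without WT 3, 6 genes of this list were higher in transgenic minus WT, and without transgenic 1 or transgenic 3 the only lower gene was Ppox. Over all tested genes these 3 fits called 3442, 734 and 641 in either direction, against 1949 with all 9 libraries.

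**Figure D5:**
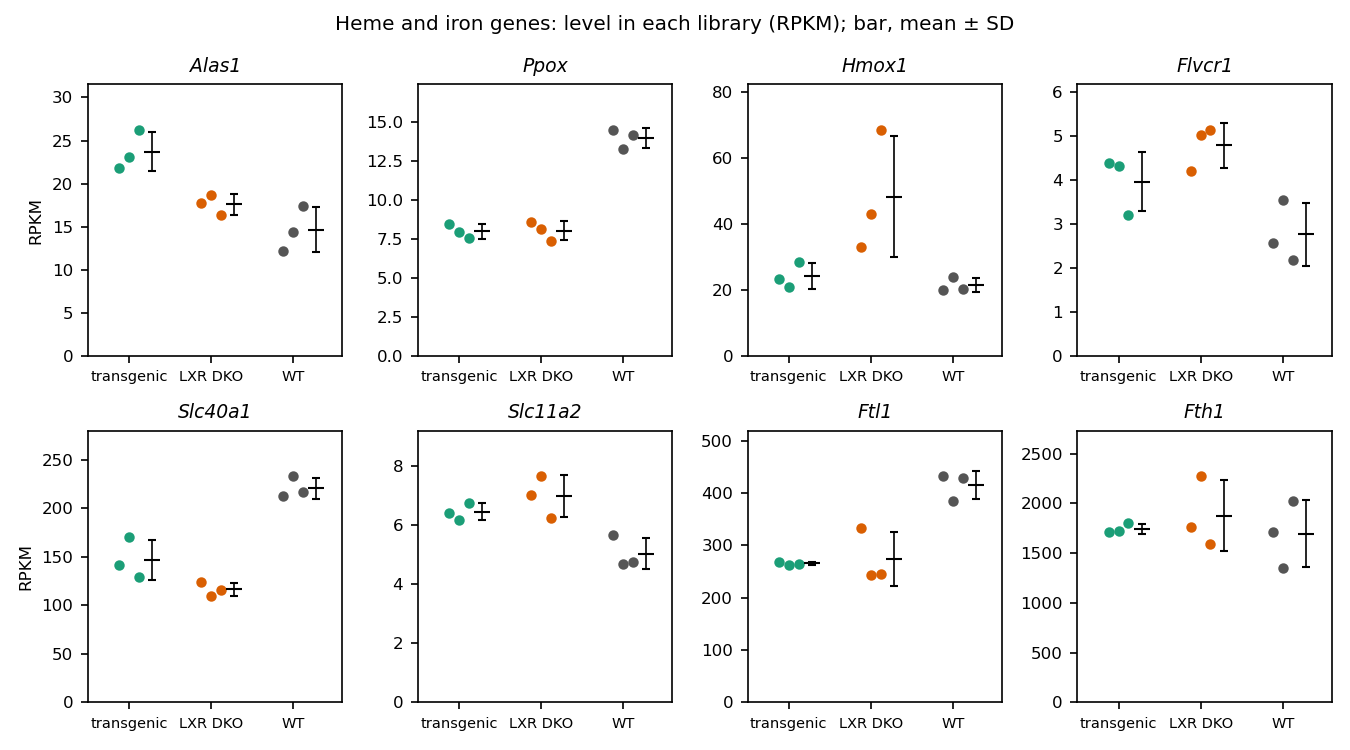
RPKM of 8 heme and iron genes in each library (points) for transgenic, LXR DKO and WT, with mean ± SD (n = 3 each); y axes start at 0 and differ between panels. Ppox, Slc40a1 and Ftl1 lie below WT in every transgenic and LXR DKO library, Hmox1 is highest in LXR DKO, and Alas1 is highest in transgenic.

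In the glutathione and thioredoxin systems outside the 10 genes, 30 of 31 listed genes were tested. In transgenic minus WT 1 was higher and 1 lower, in LXR DKO minus WT 0 were higher and 1 lower, and in transgenic minus LXR DKO limma and voom called 0, with 3 at an unadjusted p under 0.05. The share called was 6.67% in transgenic minus WT and 3.33% in LXR DKO minus WT, against 11.9% and 10.6% of all tested genes. Ggct, an enzyme of glutathione breakdown, measured 1.27, 2.46 and 1.31 RPKM in transgenic, 3.45, 2.11 and 1.04 RPKM in LXR DKO cells, and 7.32, 6.18 and 6.17 RPKM in WT libraries. It was lower than in WT in transgenic (-1.52 ± 0.27, limma, adjusted p = 0.0126; without transgenic 3, 0.0517) and in LXR DKO (-1.31 ± 0.27, adjusted p = 0.0201). The second was not called once WT 1 (adjusted p = 0.0635), WT 2 (0.052), LXR DKO 2 (0.0609) or LXR DKO 3 (0.0574) was left out. Ggt1, which splits extracellular glutathione, measured 1.54, 2.04 and 1.49 RPKM in transgenic and 0.0866, 0.150 and 1.13 RPKM in WT libraries, the last in WT 3. It was higher by 0.95 ± 0.25 (adjusted p = 0.0445), called of the fits without 1 library only without WT 3 or LXR DKO 1, with an adjusted p of up to 0.132 in the others. The partners of the 10 genes Txn1, Gsr, Gss and Prdx2 passed no test, and their differences lay between -0.16 and 0.18 on the log2 scale. Without WT 3, 6 genes of this list were higher in transgenic minus WT, and without LXR DKO 1, 3 were lower in LXR DKO minus WT. Calls over all tested genes, in either direction, rose from 1949 to 3442 in the first case and from 1739 to 1928 in the second.

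Slc7a11 also responds to amino acid shortage, through ATF4. Of 18 genes of that response, all tested, 0 were higher and 3 lower in transgenic minus WT, 0 were higher and 2 lower in LXR DKO minus WT, and limma and voom called 0 in transgenic minus LXR DKO, with 5 at an unadjusted p under 0.05. The share called was 16.7% in transgenic minus WT and 11.1% in LXR DKO minus WT, against 11.9% and 10.6% of all tested genes. Slc7a5, a transporter of large neutral amino acids, measured 18.4, 22.3 and 19.03 RPKM in transgenic, 26.1, 21.3 and 20.3 RPKM in LXR DKO cells, and 47.1, 39.7 and 32.0 RPKM in WT libraries. It was lower than in WT by limma in transgenic (-0.95 ± 0.15, adjusted p = 0.0078), in every alternative setting, and in LXR DKO (-0.78 ± 0.15, adjusted p = 0.0157), where the call was lost without LXR DKO 2 (0.0578) or LXR DKO 3 (0.0691). The direction of Slc7a5 was thus opposite to that of the Slc7a11 values, but the list was mixed. Of the 18 genes, 4 had a positive and 14 a negative log2 fold change in transgenic minus WT. In LXR DKO minus WT 7 were positive and 11 negative, with Asns at 0.29 and Atf4 at 0.26 among the positive, neither called. The part of this response in the Slc7a11 values was not tested. Nupr1, a stress-induced chromatin protein, was lower in LXR DKO (331, 342 and 209 RPKM) than in WT (532, 518 and 604 RPKM), at a log2 fold change of -0.94 ± 0.21 (adjusted p = 0.0262); this was not called once WT 1 (0.0639), WT 2 (0.0591) or LXR DKO 3 (0.0692) was left out. Trib3 and Ddit3, stress-induced targets of ATF4, were lower in transgenic minus WT, with log2 fold changes of -0.66 ± 0.16 (adjusted p = 0.0331) and -0.35 ± 0.08 (adjusted p = 0.0273). Of the fits without 1 library, Trib3 was called only without WT 3, LXR DKO 1 or LXR DKO 2 and Ddit3 only without WT 3 or LXR DKO 1, 2 or 3, with adjusted p of up to 0.106 and 0.0953 in the others. Without WT 1, WT 2 or any 1 transgenic library, 1 gene was lower in transgenic minus WT, and without WT 3 there were 6. Over all tested genes, calls in either direction were 641 to 908 in the former fits and 3442 without WT 3, against 1949 with all 9 libraries.

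Catalase works in peroxisomes, and 18 of 20 other peroxisome genes were tested. In transgenic minus WT 0 were higher and 1 lower, in LXR DKO minus WT 1 was higher and 1 lower, and in transgenic minus LXR DKO limma and voom called 0, with 1 at an unadjusted p under 0.05. The share called was 5.56% in transgenic minus WT and 11.1% in LXR DKO minus WT, against 11.9% and 10.6% of all tested genes. Pex5, the import receptor for peroxisome enzymes, measured 94.6, 98.4 and 108 RPKM in LXR DKO cells and 77.9, 74.2 and 59.0 RPKM in WT libraries, higher by 0.51 ± 0.11 (limma, adjusted p = 0.0248), a call lost without LXR DKO 2 (0.0687) or LXR DKO 3 (0.0987). Pex19, a chaperone of peroxisome membrane proteins, was lower, with log2 fold changes of -0.37 ± 0.10 in transgenic minus WT (adjusted p = 0.0491) and -0.37 ± 0.10 in LXR DKO minus WT (adjusted p = 0.0495). Of the fits without 1 library both were called only without LXR DKO 1, with adjusted p of up to 0.147 and 0.157 in the others.

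Genes whose pattern over the 9 libraries lay nearest to the 3 of the 10 genes with the largest SD of log2(RPKM + 1) (Hmox1 0.58, Gclc 0.36 and Nqo1 0.33) were found by the root mean square (RMS) difference of mean-centred log2(RPKM + 1) profiles, over all tested genes. For Hmox1 they were Lilra6 (0.118), Rassf4 (0.175) and Xpnpep2 (0.219). For Gclc they were Pcbd2 (0.102), Gm19774 (0.126) and Hes1 (0.130), and for Nqo1 they were Ptms (0.0685), Pacsin1 (0.0744) and Msantd3 (0.0814). The measure is a description over 9 libraries that share their genotypes and their differences in cell makeup.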

How the data were processed

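The authors deposited 1 matrix of RPKM values for 9 RNA sequencing libraries, 3 per genotype, with genes given by Ensembl identifier and symbol. The build was mm10 and the tools were DESeq2 1.2.8, HTSeq 0.5.4p5, HISAT2 2.1.0 and cutadapt, per the submitters' processing notes. The annotation, strandedness and treatment of multi-mapped reads were not given in the sources used here, so genes with close copies or overlapping neighbours have uncertain values. Each column was assigned to a library by its name (transgenic columns differ from the labels in 1 letter and were matched by TG and number), and 0 columns were unused. A count test had been planned in case counts were held; with RPKM values limma was used.

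Genes that reached 1 RPKM in 3 or more libraries were kept (16422), and log2(RPKM + 1) was fitted on genotype in limma 3.58.1 under R 4.3.3, with a mean-variance trend and Benjamini-Hochberg adjustment over all genes tested; the threshold was 0.05. The pseudocount understates fold changes of low genes. Recovered reads used exon lengths of GENCODE M21, which also gave coordinates: all 9 values were whole, to within 0.02 reads, for 37146 of 37863 genes (98.1%). For a gene with 1 kb of exons 3 reads correspond to 0.0638 to 0.0965 RPKM. Pairs of libraries of 1 genotype differed with a chi-square per degree of freedom of 21.5 to 27.0 in transgenic, 25.0 to 73.2 in LXR DKO libraries and 56.7 to 192 in WT, so none was a copy, while the fit assumes 1 spread for all genotypes. The scripts were tested on simulated data.

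The members, gene lists and marker lists were chosen with earlier results of these data known. Named genes are the 10 members, up to 5 called genes of each list per comparison by size of change, fixed regulators and partners, and the 3 genes nearest in pattern. Ddit3 stood under more than 1 identifier and the row with larger values was used. Voom on recovered reads, and the ratios of Gclc to Gclm and Hmox1 to Hmox2 with exact permutation tests, were chosen after seeing the data. Scores of neutrophil, theca and stroma, and endothelial markers spanned 0.467 to 1.94, 0.619 to 1.55 and 0.358 to 0.626 over all libraries. The endothelial score was at most 0.427 for WT, against at least 0.505 for the other libraries. Neutrophil scores were 0.467, 0.590 and 1.17 for WT 1, 2 and 3, and at least 0.981 for all others. In transgenic minus WT, limma called 2 of 5 tested neutrophil markers (Mmp8, Ltf) and 1 of 3 endothelial markers (Esam) higher. In the other comparisons 0 of these were called. Theca and stroma scores overlapped between genotypes. The part of these cells in the differences was not tested.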

Additional observations from a re-analysis of the deposited data

How the results depend on the processing

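Of the 10 genes, 2 were called in LXR DKO minus WT. The count was 0 with no filter and with only the 2 genotypes in the fit, 1 without the oocyte-containing libraries, without these and WT 3, and with voom on recovered reads, and 0 to 2 when each library was left out. In the other comparisons it was 0 in every setting. Over all genes, transgenic minus LXR DKO gave 19 calls, 31 with quantile normalization, 93 with only the 2 genotypes, 206 without the oocyte-containing libraries and WT 3, and 4 to 156 with each library left out, the highest without WT 3. Transgenic minus WT gave 1949, 1096 with no filter, 1201 without the oocyte-containing libraries and 641 to 3442 with each library left out. LXR DKO minus WT gave 1739, 1032 with no filter, 807 with only the 2 genotypes, 1101 without the oocyte-containing libraries and 606 to 2082 with each library left out.

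Replicate numbers gave no steady pairing of the samples. Over the 9 pairs of libraries with the same number, the correlation of deviations from the genotype mean was above 0.1 in 3. In transgenic minus LXR DKO, transgenic minus WT and LXR DKO minus WT, 0, 1 and 1 of 3 libraries correlated best with their own number. The highest correlation of any pair, 0.672, was that of LXR DKO 1 with WT 1, the oocyte-containing libraries. Deviations sum to 0 within a genotype, so these counts cannot decide whether samples were paired. With the replicate block, transgenic minus LXR DKO gave 8 calls, and Hmox1 (adjusted p = 0.0276) and Gclc (adjusted p = 0.0459) stayed called in LXR DKO minus WT.

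Small differences that were not called changed sign. With median-of-ratios scaling Srxn1 was -0.0098 in transgenic minus LXR DKO, and with quantile normalization Prdx1 was 0.099 in transgenic minus WT and 0.12 in LXR DKO minus WT. Without the oocyte-containing libraries, with or without WT 3, Prdx1 was 0.019 in transgenic minus LXR DKO. Without these and WT 3, Gclm was 0.014 and Srxn1 0.12 in transgenic minus WT, and Txnrd1 was -0.045 in LXR DKO minus WT. With each library left out, transgenic minus LXR DKO was -0.086 to 0.15 for Srxn1, -0.10 to 0.019 for Prdx1, -0.20 to 0.10 for Slc7a11 and -0.0075 to 0.11 for Nfe2l2. Transgenic minus WT was -0.19 to 0.072 for Txnrd1, -0.11 to 0.062 for Gclm, -0.18 to 0.049 for Srxn1 and -0.17 to 0.021 for Prdx1. LXR DKO minus WT was -0.059 to 0.20 for Cat, -0.053 to 0.21 for Txnrd1, -0.23 to 0.035 for Srxn1 and -0.12 to 0.070 for Prdx1. The log2 difference of Hmox1 over Hmox2 in transgenic minus WT was -0.19 to 0.14. The cause was not tested. Each pair of a gene result and an alternative setting was counted once. Of these pairs, 925 kept direction and side of the threshold, 178 lost a call, 1 gained one and 26 changed sign. The 925 include pairs in which a gene that was not called stayed so. Calls held in every alternative setting only for Ppox against WT in both genotypes, Abcc1 and Slc7a5 in transgenic minus WT, and Slc40a1 in LXR DKO minus WT. Nqo1 had the fewest reads of the 10 genes, 61 to 258 per library, and Hmox1 the largest SE (0.23).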
